A study of Danio rerio with 63 samples.

Results

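The neuronal membrane glycoprotein M6 genes of the zebrafish are gpm6aa, gpm6ab, gpm6ba and gpm6bb, and all 4 symbols had a row among the 15418 genes of the count table. They were taken as a family by name. The fourth, gpm6bb, was picked on a readout of these data, namely that its mutant-against-WT change in females differed between the olfactory bulbs (OB) and the other regions, so its values in females are given as a description without a test. Transcripts were counted in the OB, the hypothalamus and the telencephalon (Tel) of adult fish. A library came from 1 region, dissected from 3 fish alike in sex and genotype and pooled. In each region there were 5 pools of cyp19a1b-mutant males, 6 of WT males, 4 of cyp19a1b-mutant females and 6 of WT females, which made 63 libraries. The mutants come from 1 line made with TALENs, with a short frameshift deletion in the second exon of cyp19a1b, the gene of brain aromatase, which turns androgens into estrogens. WT fish were of the AB strain. Pools carry codes from A1 to C2, and the same code, sex and genotype in the 3 regions was taken as the same pool of fish.

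M6 proteins are tetraspan membrane glycoproteins related to the myelin protein PLP and its splice form DM20. In mammals GPM6A is a surface protein of neurons that promotes filopodia, neurite outgrowth and synapse formation, and GPM6B is made by neurons and glia and binds the serotonin transporter. Zebrafish have a pair of copies of each, gpm6aa and gpm6ab for GPM6A and gpm6ba and gpm6bb for GPM6B. The roles given here are known from mammals, not from zebrafish.

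Values are unique molecular identifiers (UMIs) of a gene relative to all UMIs of its library, given as CPM and scaled over all 63 libraries. The counts are of 3′ ends, so they carry no correction for length. A library held 21444 to 1033008 UMIs (median 281160), and the Tel pools of mutant females were the shallowest group, with a median of 66680. In 7 libraries the total was under 0.3 of the median of the region, among them Tel pools A1 and A2 and OB pools A1 and B1 of mutant females. The mutated gene itself did not separate the genotypes. In the Tel, cyp19a1b had 50.3, 1278, 1064, 895 and 937 CPM in mutant males (pools A1, B1, B2, C1 and C2), against 1077 to 1824 CPM in WT males (median 1383). It had 727.5, 1162, 776 and 887 CPM in mutant females (A1, A2, B1 and C1), against 1046 to 1917 CPM in WT females (median 1740.3). In the hypothalamus the means were 534 ± 343 CPM in mutant males, 944 ± 421 in WT males, 788 ± 186 in mutant females and 1016 ± 115 in WT females (SD, n = 5, 6, 4 and 6). Mutant males ran there from 87.5 to 1040 CPM, against 493 to 1620 CPM in WT males. As in the Tel, pool A1 was the lowest, with 20 UMIs. In the OB all 4 group means lay between 20.9 and 27.7 CPM. None of the 6 comparisons of genotypes passed the test for this gene (lowest adjusted p = 0.303, edgeR). A tag at the 3′ end does not report a small deletion in the second exon, so these values check no label.

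Region was the strongest difference within the family. All 4 genes were low in the OB and high in the hypothalamus and the Tel. Over the 21 libraries of a region, gpm6aa lay between 17.7 and 145 CPM in the OB, between 854 and 2677 in the hypothalamus and between 917 and 3256 in the Tel. For gpm6ab the ranges were 29.4 to 98.1 CPM in the OB, 1584 to 2324 in the hypothalamus and 1681 to 3088 in the Tel. The least counted member, gpm6ba, had 0 to 57.5 CPM in the OB, 158 to 513 in the hypothalamus and 196 to 553 in the Tel. Its 0 came from mutant female pool A1 in the OB, whose total of 31219 UMIs allows up to 96.1 CPM, so the gene cannot be called absent there. For gpm6bb the ranges were 19.3 to 149 CPM, 327 to 4022 CPM and 276 to 4664 CPM in the OB, the hypothalamus and the Tel. No OB library reached the lowest hypothalamus or Tel library for any member.

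**Figure D1:**
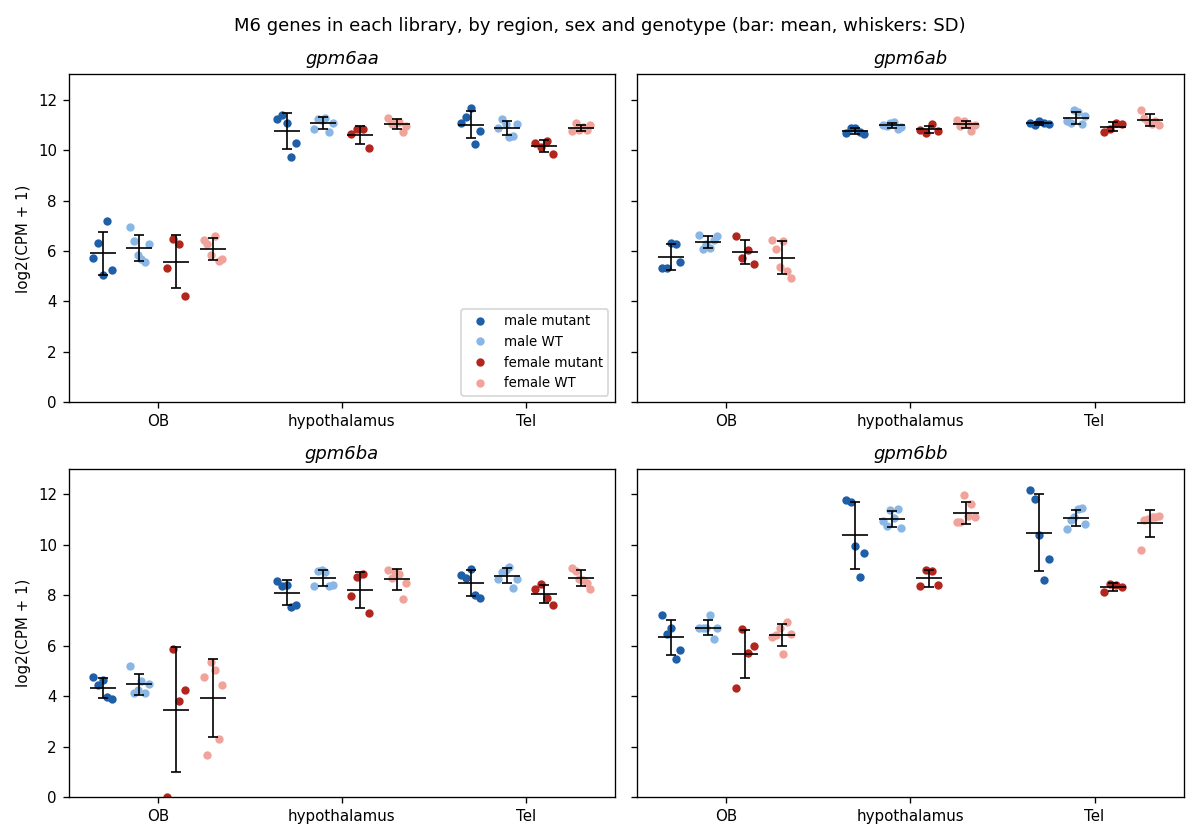
Levels of the 4 M6 genes in each of the 63 libraries, as log2(CPM + 1), by region (x axis) and by sex and genotype (color), with group means and SD as bars and whiskers. In every panel all OB points lie below all hypothalamus and Tel points, and for gpm6bb the mutant males spread from 389 to 4664 CPM in the Tel, against 1577 to 2783 CPM in WT males.

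In WT males, gpm6ab averaged 82 ± 13.8 CPM in the OB, 2029 ± 152 in the hypothalamus and 2516 ± 414 in the Tel (SD, n = 6 each). The log2 fold change of the OB over the Tel was -4.78 ± 0.18 (SE, adjusted p = 1.49e-22, edgeR with the pool as a block). The same contrast was -4.56 ± 0.25 for gpm6aa, -4.06 ± 0.18 for gpm6ba and -4.20 ± 0.21 for gpm6bb, so the 4 genes were 16.7 to 27.5 times lower in the OB. Over the hypothalamus the OB values in WT males were -4.72 ± 0.25 for gpm6aa, -4.45 ± 0.18 for gpm6ab, -3.96 ± 0.18 for gpm6ba and -4.15 ± 0.21 for gpm6bb. In WT females the log2 fold change of the OB over the Tel was -4.66 ± 0.18 for gpm6aa, -5.25 ± 0.19 for gpm6ab and -4.32 ± 0.26 for gpm6ba, and over the hypothalamus -4.75 ± 0.18, -5.03 ± 0.19 and -4.20 ± 0.25. For gpm6bb in WT females the values were -4.31 over the Tel and -4.65 over the hypothalamus, as a description. The values of gpm6ba against the OB are a description, since it had too few counts in the OB to pass the low-count filter there and entered these fits through the regions where it is high. Of the other members, 6 of 6 tests against the OB were called in WT males and 4 of 4 in WT females, by edgeR and by DESeq2. A gene was called where it changed 1.5-fold or more and its adjusted p was at most 0.05. Calls were common in these contrasts: 56.7% of 5921 genes for the OB over the Tel and 59.3% for the OB over the hypothalamus in WT males, and 57.3% and 58.6% of 5790 genes in WT females. A call alone therefore does not set the family apart, and the median change over all genes was 0.07 in WT males and -0.04 in WT females for the OB over the Tel. With library totals alone as the scale that median moved to -0.36 and -0.31, and the M6 values moved with it (gpm6aa -5.02 in WT males).

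Between the hypothalamus and the Tel no member was called. None of the 4 genes was called in WT males and none of the 3 tested in WT females, where 13.6% and 13.1% of all genes were called. The log2 fold changes of the hypothalamus over the Tel in WT males were 0.16 ± 0.21 for gpm6aa, -0.33 ± 0.14 for gpm6ab, -0.10 ± 0.13 for gpm6ba and -0.05 ± 0.18 for gpm6bb. Of these, gpm6ab alone was under 0.05 before adjustment (adjusted p = 0.117, edgeR). In WT females the values were 0.09 ± 0.14, -0.23 ± 0.14 and -0.12 ± 0.15 for the first 3 genes, and 0.34 for gpm6bb as a description. DESeq2 called none of these either.

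Markers of cell types moved with region too. The summed level of 11 neuron markers (among them the synaptic gene snap25a and the RNA-binding gene elavl3) was 461 to 1346 CPM in the OB, 8426 to 20144 CPM in the hypothalamus and 5531 to 11014 CPM in the Tel. Of 10 neuron markers tested, 8 were lower in the OB than in the Tel in WT males (median log2 fold change -2.46) and 8 in WT females (median -2.77). Not called in either sex were elavl3 (0.06 ± 0.29 in WT males and 0.04 ± 0.28 in WT females) and nefmb (-1.01 ± 0.58 and 0.63 ± 0.73). The M6 sum was 19.1 to 35.2% of the neuron marker sum in OB libraries, 35.6 to 62.2% in the hypothalamus and 53.6 to 127% in the Tel, so the ratio too was lower in the OB. OB libraries held 1206 to 3887 CPM of 7 olfactory sensory neuron markers, against 24.1 to 105 in the hypothalamus and 18.5 to 129 in the Tel. The summed level of 10 radial glia markers overlapped between regions. It was 1098 to 25817 CPM in the OB, 8004 to 36945 in the hypothalamus and 4390 to 31098 in the Tel. In the OB of WT females glula alone averaged 12363 ± 6383 CPM. Of the radial glia markers, 7 of 9 tested were called lower in the OB than in the Tel in either sex. The median was -3.25 in WT males and -2.41 in WT females. Among the lower ones were slc1a2b (-4.92 and -5.26) and the gap junction gene cx43 (-4.79 and -4.80), whose changes were as large as those of M6 genes. Called lower in the OB than in the Tel were 1474 of all 5921 genes in WT males and 1623 of 5790 in WT females. In the fit of the OB, 7 neuron and 6 radial glia markers passed the low-count filter. The other markers entered through the other regions, so their part of these counts and medians is a description. OB libraries held 12520.0 to 23232 CPM of 10 microglia and macrophage markers, against 879 to 1758 in the hypothalamus and 677 to 1728 in the Tel. Most of the OB sum was apoeb and cd74a, which averaged 14042 and 4922 CPM there in WT males. No UMI of p2ry12 was counted in any OB group, while WT groups of the other regions had some. In bulk RNA, fewer neurons and less M6 transcript per neuron cannot be told apart. The part of these cell types in the M6 difference was not tested.

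**Figure D2:**
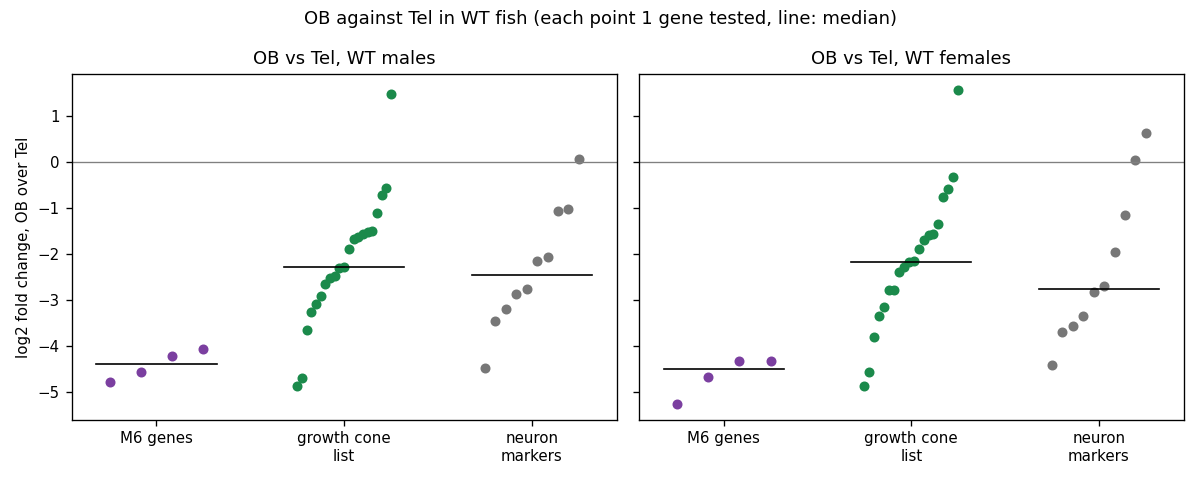
Log2 fold change of the OB over the Tel in WT males (left) and WT females (right) for each gene tested of the M6 family, the growth cone and neurite outgrowth list and the neuron markers, with the median of each set as a line. All 4 M6 genes, gpm6ba as a description, lie between -5.25 and -4.06, below the medians of -2.27 and -2.17 of the growth cone list and of -2.46 and -2.77 of the neuron markers. Both sets include genes that did not pass the low-count filter in the OB.

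A list of growth cone and neurite outgrowth genes, chosen for the known roles of M6 proteins, held 32 genes with a row. In WT males 19 of 21 tested were lower in the OB than in the Tel and 1 was higher, and in WT females 18 of 20 were lower and 1 higher. Over all genes 1474 of 5921 were called lower in WT males and 1623 of 5790 in WT females. Of the list, 15 genes passed the low-count filter in the fit of the OB. The others entered through the other regions, as gpm6ba did, so their part of these counts is a description. The largest changes were in basp1 and gap43, both growth cone proteins that meet the membrane. In WT males, basp1 averaged 49.7 ± 29.5 CPM in the OB and 1615 ± 211 in the Tel (log2 fold change -4.86 ± 0.21), and gap43 averaged 34.6 ± 7.45 CPM in the OB and 987 ± 209 in the Tel (-4.68 ± 0.18). In WT males the change of gap43 lay within the range of the 4 M6 genes and that of basp1 just beyond it. Between the hypothalamus and the Tel, where no M6 gene was called, gap43 was lower in the hypothalamus (-1.18 ± 0.14 in WT males and -1.17 ± 0.15 in WT females, adjusted p = 2.66e-08 and 2.57e-09, edgeR). The largest change of the list there was in cntn1b, higher in the hypothalamus (1.38 ± 0.20 and 1.47 ± 0.20). Of the list, 3 were higher and 3 lower of 21 in WT males, and 3 higher and 1 lower of 20 in WT females. Over all genes 13.6% and 13.1% were called. The list of filopodia and Rac-actin genes had no common direction: 7 of 16 were higher and 6 lower in the OB than in the Tel in WT males, and 5 higher and 7 lower in WT females. In that list 11 genes passed the low-count filter in the fit of the OB. In WT males cfl1l, an actin-severing cofilin, was higher (4.89 ± 0.45), and the small GTPases rac3a and rac3b were lower (-3.50 ± 0.25 and -4.18 ± 0.23).

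The relatives of the family, plp1a and plp1b, encode myelin proteolipid proteins. In WT males plp1b averaged 23.8 ± 13.9 CPM in the OB, 1731 ± 347 in the hypothalamus and 142 ± 42.2 in the Tel, and in WT females 27.5 ± 8.75, 1480.0 ± 257 and 100.4 ± 25.5 CPM. It was higher in the hypothalamus than in the Tel by a log2 fold change of 3.60 ± 0.20 in WT males and 3.83 ± 0.17 in WT females (adjusted p = 1.18e-16 and 2.46e-26, edgeR), where no M6 gene was called. Few plp1a UMIs were counted, with group means of 7.95 to 26.9 CPM. Neither relative was called between genotypes or sexes in a region where it was tested.

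In females, gpm6bb was low in mutants in the Tel and the hypothalamus and overlapped between genotypes in the OB. In the Tel, gpm6bb had 276, 351, 342 and 317 CPM in mutant females (A1, A2, B1 and C1), against 879 to 2270.4 CPM in WT females (median 2155). In the hypothalamus it had 327, 506, 493 and 336 CPM in mutant females, against 1894 to 4022 CPM in WT females (median 2242). No mutant pool reached the WT range in either region, a layout found in females for 7.84% of 4437 genes tested in the Tel, and for the hypothalamus in 6.13% of 6463. In the OB the values were 19.3, 99.4, 51.6 and 62.1 CPM in mutant females, against 50.4 to 123 CPM in WT females (median 87.2), and the groups overlapped. As fitted, gpm6bb had a log2 fold change of mutant over WT females of -2.34 for the Tel, of -2.44 for the hypothalamus and of -0.10 for the OB. The change in the OB exceeded the mean of the changes in the other regions by 2.18 on the log2 scale. These are the values on which gpm6bb was chosen, and they carry no test. The low end of the OB rests on few molecules, since mutant female pools A1, B1 and C1 had 1, 4 and 7 gpm6bb UMIs there. Without the 7 low-total libraries the log2 fold changes of gpm6bb were -2.53 (Tel), -2.38 (hypothalamus) and 0.12 (OB). That setting dropped mutant female pools A1 and A2 in the Tel, A1 and B1 in the OB and A1 in the hypothalamus. These values too are a description.

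Neuron markers were lower in CPM in the same female libraries. The summed level of the 11 markers was 5531 to 6547 CPM in the Tel of mutant females, against 7255 to 10616 CPM in WT females, and 8426 to 11854 CPM in the hypothalamus of mutant females, against 11570 to 16993 CPM in WT females. On the scale of the fits none of 9 markers tested in the Tel or 10 in the hypothalamus was called, with median log2 fold changes of 0.09 and 0.0058. The scales differ, as gpm6ab in the Tel averaged 1952 CPM in mutant females and 2361 CPM in WT females. Its fitted log2 fold change there was -0.01. The neuron marker snap25a had 1681 to 2129 CPM in the Tel of mutant females, against 2829 to 6153 CPM in WT females, with a log2 fold change of -0.77 ± 0.26 (adjusted p = 0.137, edgeR). Of the radial glia markers, 1 of 9 tested was lower in mutant females in the hypothalamus and 1 of 6 in the OB, both times glula, the gene of glutamine synthetase (-1.46 ± 0.29 and -1.94 ± 0.54). The OB call was close to the limit (adjusted p = 0.0498, edgeR). Over all genes 3.56% were called in the hypothalamus of females and 2.59% in the OB. The part of these markers in the gpm6bb values was not tested.

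In males, which the choice did not use, gpm6bb was not called in any region. Its log2 fold change of mutant over WT males was -0.05 ± 0.40 for the Tel, -0.14 ± 0.35 for the hypothalamus and -0.17 ± 0.27 for the OB (adjusted p = 0.999, 0.902 and 0.900, edgeR). The mean hides a wide spread between pools. In the Tel, mutant male pools A1, B1, B2, C1 and C2 had 4664, 3589, 1332, 389 and 695 CPM, against 1577 to 2783 CPM in WT males (median 2112). In the hypothalamus the same pools had 3553, 3359, 1005, 419 and 812 CPM, against 1623 to 2768 CPM in WT males (median 2069). In both regions A1 and B1 lay above every WT male pool and B2, C1 and C2 lay below every WT male pool, so no mutant male pool fell within the WT range. In the OB, A1, B1, B2, C1 and C2 had gpm6bb at 146, 88.5, 104, 43.4 and 56 CPM, against 75.8 to 149 CPM in WT males (median 103). There too C1 and C2 were the lowest and A1 the highest, but A1, B1 and B2 lay within the WT male range and B2 was above B1. These OB values rest on 34, 34, 13, 9 and 12 gpm6bb UMIs in A1, B1, B2, C1 and C2.

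The spread of gpm6bb in mutant males was large beside its own WT spread. The SD of log2(CPM + 1) over pools was 1.52 in mutant males and 0.33 in WT males in the Tel, and 1.34 in mutant males and 0.32 in WT males in the hypothalamus. Over all genes tested the median SD was 0.45 in mutant males and 0.54 in WT males for the Tel, and 0.57 in mutant males and 0.40 in WT males for the hypothalamus. In the Tel 2.7% of 4437 genes had an SD in mutant males as large as that of gpm6bb, and in the hypothalamus 10.4% of 6463 did. The layout with the same pools above and the same pools below the WT range in both regions, and none within it, was found in 13 of 4397 genes tested in both (0.296%), counted after the values of gpm6bb had been seen. The other 3 M6 genes did not have it. The 5 mutant male pools are 5 samples of 1 labelled group, and the labels give nothing else that divides them. Pool A1, the highest in gpm6bb, was the lowest of them in cyp19a1b in both regions, and a link was not tested. The synaptic marker snap25a also spread in these pools, with 6271, 6063, 3552, 2235 and 2412 CPM in the Tel of mutant males A1, B1, B2, C1 and C2, against 3168 to 4677 CPM in WT males. There A1 and B1 lay above and C1 and C2 below the WT males, and B2 lay within. The summed neuron markers were 6398 to 11014 CPM in mutant males and 6023 to 9696 CPM in WT males, and their part in the spread of gpm6bb was not tested.

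**Figure D3:**
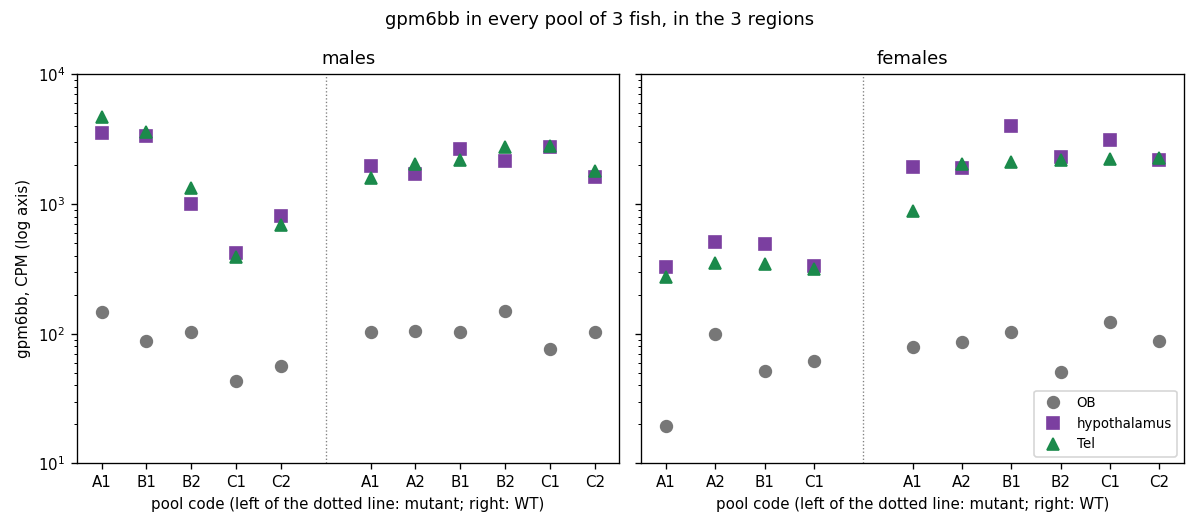
CPM of gpm6bb (log axis) in each pool, with mutant pools left and WT pools right of the dotted line, for males and females and for the OB, the hypothalamus and the Tel. Mutant male pools A1 and B1 lie above and B2, C1 and C2 below the WT male pools in the hypothalamus and the Tel, while all 4 mutant female pools lie below the WT female pools there. The female values are those that chose the gene.

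Interactions of genotype with region in males had no call among the members. The OB change less the mean of the hypothalamus and Tel changes was 0.02 ± 0.34 for gpm6bb (adjusted p = 1.0, edgeR), 0.09 ± 0.36 for gpm6aa and -0.35 ± 0.25 for gpm6ab. None was called, none had an unadjusted p under 0.05, and DESeq2 called none. No interaction is given for gpm6ba, which did not pass the low-count filter in the OB. Across all genes 0 of 5921 were called in males, or 0%, with 385 at an unadjusted p under 0.05 and 0 calls with DESeq2. In females, 5 of 5790 genes were called (0.0864%). There gpm6aa had an interaction of 0.40 ± 0.36 and gpm6ab of 0.35 ± 0.37, neither called (lowest adjusted p = 0.883, edgeR), with none at an unadjusted p under 0.05 and none called by DESeq2.

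The share of gpm6bb among the UMIs of the 4 M6 genes sets the gene against its own family within a library, where the scaling between libraries falls away. In the Tel it was 7.86, 9.60, 8.44 and 8.94% in mutant female pools A1, A2, B1 and C1, on totals of 140, 198, 486 and 705 M6 UMIs, against 14.1 to 34.3% in WT females (median 32.8%). In the hypothalamus it was 8.23, 11.5, 10.2 and 10.2% in mutant females, against 26.7 to 46.2% in WT females (median 32.8%). The Wilson 95% interval of the smallest library, Tel mutant female A1 with 11 of 140 UMIs, ran from 4.44 to 13.5%. Such intervals cover counting error only. The female shares are drawn from the values on which gpm6bb was chosen, so they are a description without a test. In mutant males the Tel shares were 49.5, 41.8, 18.1, 9.67 and 14.7% for A1, B1, B2, C1 and C2, against 25.8 to 41.7% in WT males (median 28.3%). The hypothalamus shares were 44.6, 40.8, 18.6, 13.4 and 21.2% in mutant males, against 26.0 to 41.8% in WT males (median 30.7%). The low mutant male pools B2, C1 and C2 thus lay below all WT male pools in share as well as in CPM, and the share of C1 in the Tel lay next to the highest share of a mutant female pool, 9.60%. Of the high pools, A1 lay above all WT male pools in share in both regions. Pool B1 did so barely in the Tel (41.84 against 41.69%) and lay within the WT male range in the hypothalamus. In the OB the M6 totals were 8 to 87 UMIs in mutant pools and 45 to 274 in WT pools, and the shares overlapped between genotypes in both sexes.

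**Figure D4:**
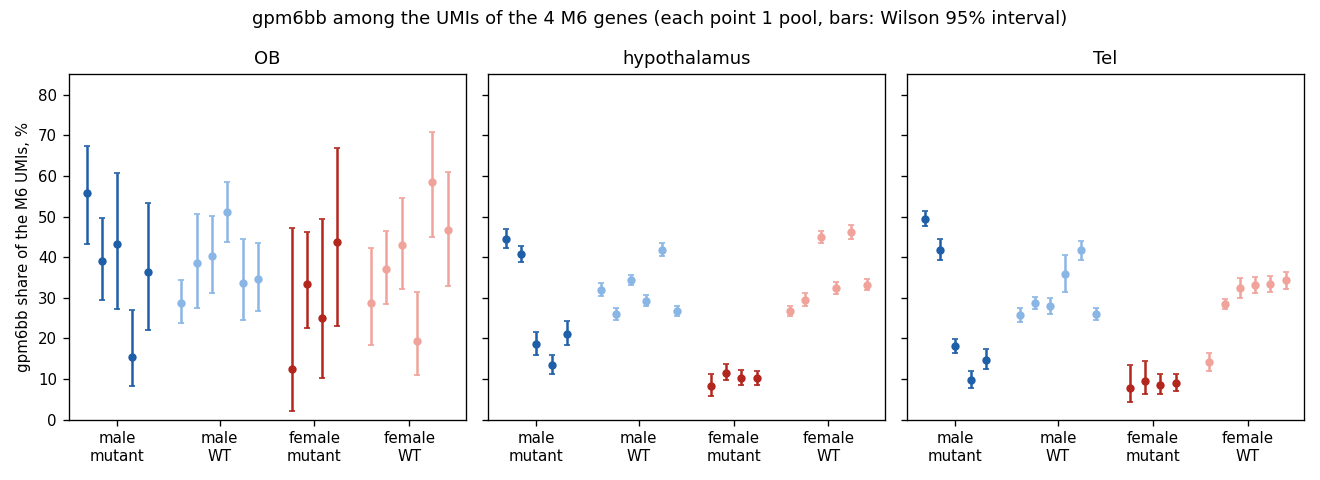
Percentage of gpm6bb among the UMIs of the 4 M6 genes in each pool, with Wilson 95% intervals, by sex and genotype in the OB, the hypothalamus and the Tel. Mutant female pools sit between 7.86 and 11.5% in the hypothalamus and the Tel, below all WT female pools, and OB intervals are wide. The female values chose the gene and are a description.

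No member tested was called between genotypes. In the tests of mutant over WT males, 0 of 11 tests of members were called, over gpm6bb in 3 regions, gpm6aa and gpm6ab in 3 and gpm6ba in 2. None had an unadjusted p under 0.05 and DESeq2 called none. The share of all genes called was 0.0221% in the OB, 1.93% in the hypothalamus and 0.0225% in the Tel. In the tests of mutant over WT females, 0 of 8 were called, with none at an unadjusted p under 0.05 and none by DESeq2, against 2.59% of all genes in the OB, 3.56% in the hypothalamus and 2.46% in the Tel.

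Of the tests in females, that of gpm6aa, an ortholog of the neuronal GPM6A, had the lowest adjusted p, in the Tel. There it had 1254, 1107, 1319 and 917 CPM in mutant females, against 1722 to 2155 CPM in WT females (median 1861), and the groups did not overlap in CPM. All mutant female pools likewise lay below all WT female pools in 7.84% of 4437 genes tested in the Tel. On the scale of the Tel fit the log2 fold change was -0.44 ± 0.23 and did not pass (adjusted p = 0.431, edgeR). That fit shares its estimate of spread with the males. The SD of log2(CPM + 1) was 0.54 in mutant males, 0.28 in WT males, 0.23 in mutant females and 0.12 in WT females. Without the low-total libraries, which left 2 mutant female pools in the Tel, it was -0.72 (adjusted p = 0.296, edgeR). In the hypothalamus it had 1598, 1814, 1809.9 and 1083 CPM in mutant females, against 1699 to 2473 CPM in WT females (median 2133), with a log2 fold change of -0.24 ± 0.24. In males gpm6aa had 2178, 2538, 3256, 1212 and 1723 CPM in the Tel of mutant pools A1, B1, B2, C1 and C2, against 1474 to 2409.8 CPM in WT males (median 1969). Pools B1 and B2 lay above and C1 below the WT range, and the log2 fold change was 0.22 ± 0.20. The hypothalamus values were 2419.6, 2677, 2171, 854 and 1244 CPM in mutant males, against 1686 to 2496 CPM in WT males (median 2253), with a log2 fold change of -0.11 ± 0.23. There B1 lay above and C1 and C2 below the WT range. In the OB the changes were 0.06 ± 0.33 in males and 0.12 ± 0.46 in females, on groups that overlapped.

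Its copy gpm6ab varied little between mutant male pools in the Tel and the hypothalamus. The 5 mutant male pools lay between 2042 and 2253 CPM in the Tel, against 2067 to 3069 CPM in WT males, and between 1584 and 1897 CPM in the hypothalamus, against 1831 to 2233 CPM in WT males. Its SD of log2(CPM + 1) over mutant males was 0.06 in the Tel and 0.12 in the hypothalamus, smaller than that of gpm6aa in the same pools (0.54 and 0.71). The log2 fold changes of mutant over WT were -0.23 ± 0.18 and -0.14 ± 0.13 in the Tel and the hypothalamus of males, and -0.01 ± 0.19 and -0.02 ± 0.14 in those of females. In the OB gpm6ab had 38.7, 39, 79.7, 77.1 and 46.7 CPM in mutant males, against 66.7 to 98.1 CPM in WT males (median 81.8), with a log2 fold change of -0.50 ± 0.29 (adjusted p = 0.611, edgeR). In the OB of females the change was 0.39 ± 0.40. In the Tel of the 5 mutant male pools, over which gpm6ab kept to this narrow range, gpm6bb ran from 389 to 4664 CPM.

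For gpm6ba, the copy of gpm6bb, the Tel values were 442, 408, 528, 261 and 236 CPM in mutant males A1, B1, B2, C1 and C2, against 314 to 553 CPM in WT males (median 445). They were 301, 351, 234 and 196 CPM in mutant females, against 306 to 548 CPM in WT females (median 398). In the hypothalamus they were 381, 333, 338, 183 and 196 CPM in mutant males, against 329.5 to 513 CPM in WT males, and 250.2, 419, 465 and 158 CPM in mutant females, against 229 to 513 CPM in WT females. Pools C1 and C2 of mutant males lay below the WT range in both regions. The log2 fold changes of mutant over WT were -0.20 ± 0.25 and -0.45 ± 0.27 in the Tel and the hypothalamus of males (adjusted p = 0.873 and 0.453, edgeR), and -0.44 ± 0.30 and -0.15 ± 0.28 in those of females. Without the low-total libraries the value for the Tel of females was -0.94 (adjusted p = 0.210, edgeR). In the OB gpm6ba had 0 to 27 UMIs a library and did not pass the low-count filter of the fit for that region. An exact two-sided permutation test on log2(CPM + 1) there gave a difference of -0.13 for mutant minus WT males and -0.46 for mutant minus WT females (exact p = 0.619 and 0.705, both 0.705 after adjustment over 4 tests).

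**Figure D5:**
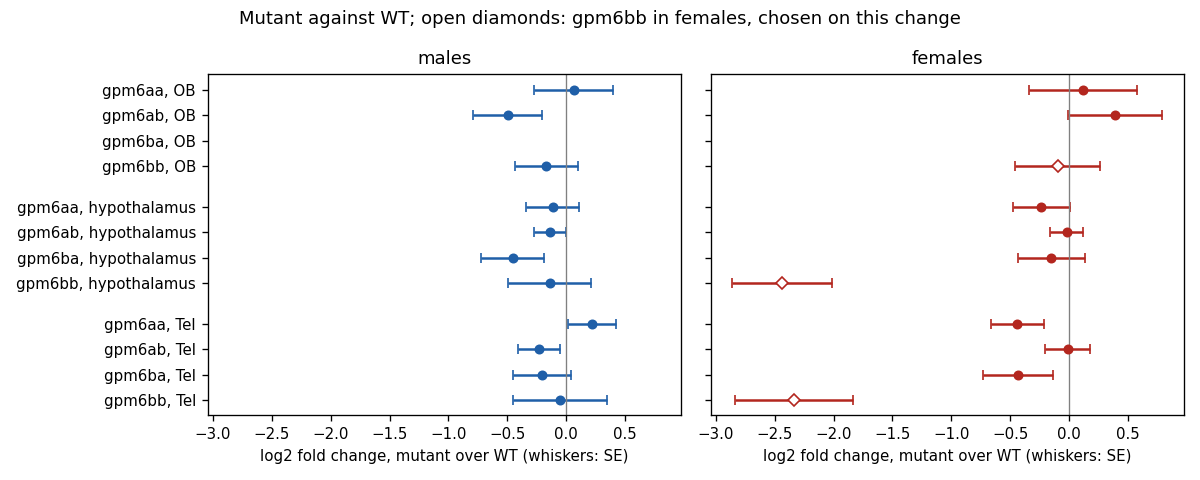
Log2 fold change of mutant over WT with its SE for each M6 gene in each region, in males (left) and females (right). For gpm6bb the female values, which chose the gene, are drawn as open diamonds at -2.44 and -2.34 in the hypothalamus and the Tel and at -0.10 in the OB, and gpm6ba in the OB has no point because it did not pass the low-count filter.

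Pool C1 was often the lowest for gpm6aa. It had the lowest gpm6aa CPM of its group in 4 of 4 groups in the hypothalamus, 3 of 4 in the OB and 2 of 4 in the Tel. In the OB of mutant males C1 was instead the highest pool, and in the Tel it was the lowest in the mutant groups but not in the WT groups. In the hypothalamus C1 was the lowest in 3 of 4 groups for gpm6ba, in 2 of 4 for gpm6ab and in 1 of 4 for gpm6bb. How many of all genes had C1 lowest as often was not counted. Over the genes tested in a region, C1 pools of different groups deviated together (correlation 0.119 to 0.411). What the codes stand for is not given in the sources used here.

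Males and females were compared for gpm6aa, gpm6ab and gpm6ba. In WT fish 0 of 8 tests were called, with log2 fold changes of males over females from -0.03 to 0.43, none at an unadjusted p under 0.05 and none called by DESeq2. Calls over all genes were as rare, at 0.0885% in the OB, 0.0155% in the hypothalamus and 0.0451% in the Tel. In mutants 0 of 8 were called, by edgeR or DESeq2, where 2.26%, 2.38% and 1.19% of all genes were called in the OB, the hypothalamus and the Tel. The largest difference in mutants was gpm6aa in the Tel, with a mean of 2181 ± 779.8 CPM in mutant males and 1149 ± 178.5 in mutant females (SD, n = 5 and 4). Its log2 fold change of 0.67 ± 0.23 was under 0.05 before adjustment and did not pass after it (adjusted p = 0.212, edgeR). It was called without mutant male pool C1 (0.83, adjusted p = 0.0315) and in no other setting run. For gpm6bb, as a description, mutant males averaged 2134 ± 1889 CPM and mutant females 322 ± 33.5 CPM in the Tel. All 5 mutant male pools there lay above all 4 mutant female pools, by little for C1. How many of all genes had this layout between mutant males and mutant females was not counted.

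The genotype change in females less that in males was tested for the same 3 genes. None of 8 interactions was called, 1 had an unadjusted p under 0.05 and DESeq2 called none, where 0.199% of all genes were called in the OB, 2.04% in the hypothalamus and 0.496% in the Tel. The 1 was gpm6aa in the Tel (-0.66 ± 0.30, adjusted p = 0.569, edgeR). For gpm6bb this difference of log2 fold changes was -2.29 (Tel), -2.30 (hypothalamus) and 0.07 (OB), with no test.

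Over all genes, calls between genotypes were 2.59% in the OB, 3.56% in the hypothalamus and 2.46% in the Tel of females. In males they were 0.0221%, 1.93% and 0.0225%. In the hypothalamus of females 1 of 22 growth cone genes tested was called, a count that does not set the list apart. The filopodia list had 2 of 11 called in the OB of females, 2 of 15 in the hypothalamus and 1 of 12 in the Tel. Of the growth cone list, 1 gene was called in the 6 comparisons of mutant with WT: marcksb, a membrane and actin binding protein, with 626 ± 55 CPM in the hypothalamus of mutant females and 1429 ± 388 in WT females (-1.01 ± 0.19, adjusted p = 0.00128, edgeR). In the list of filopodia genes, cfl1, which encodes the actin-severing cofilin, was lower in mutant females in all 3 regions, with log2 fold changes of -2.82 ± 0.41 in the OB, -3.04 ± 0.38 in the hypothalamus and -3.10 ± 0.45 in the Tel. In the Tel cfl1 averaged 2854 ± 919 CPM in mutant females and 29053 ± 10184 in WT females. The GTPase cdc42, which drives filopodia, was lower in mutant females in the OB (-1.55 ± 0.32) and the hypothalamus (-0.77 ± 0.20). No gene of the list was called in males between genotypes. The list for serotonin transport and synthesis, which also holds mao of monoamine metabolism, had 9 genes. At most 3 passed the low-count filter in a region, and none was called between genotypes. In the hypothalamus mao was called between mutant males (48.2 ± 17.8 CPM) and mutant females (103.4 ± 13.5 CPM). Its log2 fold change of males over females was -1.11 ± 0.27 (adjusted p = 0.0196, edgeR).

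The genes whose levels ran most like those of the members were found over the 12 group means of log2(CPM + 1). The 12 points share the scaling of the libraries and include the 4 OB groups, in which every member was low, so r is a description. For gpm6aa they were cbx1b, rtn1a and atp6v0cb, with Pearson r of 0.997 each over 12 groups. For gpm6ab they were marcksl1b, slc1a2b and stmn2a (r = 0.998, 0.998 and 0.996), of which stmn2a encodes a growth cone stathmin and slc1a2b a glutamate transporter. For gpm6ba they were calm1a, gpm6aa and rnasekb (r = 0.996, 0.995 and 0.995). For gpm6bb they were elmod1, kidins220b and hist2h2l (r = 0.995, 0.991 and 0.978), while its r with gpm6aa was 0.940 and with gpm6ab 0.914. The first of these, elmod1, which encodes a GTPase-activating protein for small GTPases in mammals, had a similar order of pools. In the Tel it had 6537, 5088, 3987, 941 and 1879.9 CPM in mutant males A1, B1, B2, C1 and C2, against 2432 to 4889 CPM in WT males. It had 627 to 1162 CPM in mutant females there, against 2467 to 4080 CPM in WT females. The gene kidins220b, a scaffold for neurotrophin receptors in mammals, had 970.2, 1523, 865, 368 and 471 CPM in the Tel of mutant males, against 678 to 1049 CPM in WT males. As with gpm6bb, C1 and C2 lay below the WT males in the Tel. Pool A1 of kidins220b and pool B2 of both genes did not leave the WT male range there. In the hypothalamus kidins220b had 1216, 1431, 474, 225 and 547 CPM in mutant males, against 631 to 1173 CPM in WT males. There A1 and B1 lay above and B2, C1 and C2 below all WT males, as for gpm6bb. For elmod1 the hypothalamus values were 7552, 5090, 2702, 1056 and 2447 CPM in mutant males, against 2499 to 5400 CPM in WT males. Its pools B1 and B2 lay within the WT male range there, unlike those of gpm6bb, and C2 lay just below it.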

How the data were processed

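Libraries were made by bulk RNA barcoding (BRB-seq). Per the study's methods, first reads of a barcode and a UMI were filtered on quality, and second reads were aligned to the UCSC danRer11 transcriptome. Reads with several places were left out, which can lower counts of genes with near-identical copies. The submitters' processing notes name BWA 0.7.4.4. The deposited values are raw counts of distinct UMIs for each gene, and the authors' later rlog values were not used. No column belonged to another sample.

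Each region had its own edgeR fit (version 4.0.16, R 4.3.3) of 21 libraries in 4 groups, with TMM scaling, edgeR's filterByExpr, the quasi-likelihood test and Benjamini-Hochberg adjustment over all genes tested. Regions and genotype-by-region interactions were fitted within a sex with the pool as a block. Over all 3 pairs of regions, the same pool deviated together (median correlation 0.255 to 0.339, lowest 0.035). It did so only weakly in mutant female pools A1, A2 and B1 (0.035 to 0.18), which enter the female interactions. Genes were called at 1.5-fold or more with an adjusted p of at most 0.05, interactions by the adjusted p alone. SE is that of the fit. CPM were scaled by TMM over 63 libraries, with a pseudocount of 1 in log2(CPM + 1), so a ratio of CPM can differ from a fitted change. The labels name pools of 3 fish, and p-values measure the spread between pools. That spread is estimated for each gene over all groups of a fit. A comparison of 2 groups therefore also draws on the spread of the other groups, the other sex included in the fits of a region. All 138 pairs of replicates differed beyond sampling noise (chi-square per degree of freedom 1.47 to 11). The fits were tested on simulated counts.

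The members and lists were chosen with earlier results of these data known. Named are the 4 members, cyp19a1b, plp1a and plp1b, the 3 genes most like each member, and up to 3 called genes with the largest changes per list. The reference at hand is of another assembly (GRCz12tu) and matched all 4 symbols by name. No coordinates or sequences are given. Alternatives were DESeq2 1.42.0, its size factors or library totals for scaling, no low-count filter, thinned counts, no fold step, low-total libraries left out (under 0.3 of the region's median), the block added or dropped, and each pool left out.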

Additional observations from a re-analysis of the deposited data

Results flagged for a closer look

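Among 48 sets of pools (4 genes in 12 groups), 1 pool stood far from the others of its group. In the Tel of WT females, pool A1 had 879 CPM of gpm6bb (146 UMIs), against 2047 to 2270.4 CPM in the other 5 pools. Its gap to the nearest pool was 0.84 of the range of the group. Chance marks about 1 in 20 groups at this limit. The same pool had 1938 CPM of gpm6bb in the hypothalamus, within the range of its group.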

How the results depend on the processing

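Region calls of the members (8 in WT males and 6 in WT females, gpm6ba included) were the same in number under all settings run and with each pool left out. The gpm6ba calls among them are a description, since that gene entered through the regions where it is high. Without gpm6ba the calls against the OB were 6 in WT males and 4 in WT females, by edgeR and by DESeq2. No other member test was called, except that dropping pools singly gave 0 to 1 calls between mutant males and mutant females (the 1 without mutant male C1). Directions near 0 were not fixed. With library totals as the scale, gpm6ab in mutant against WT females became 0.16 in the hypothalamus and 0.23 in the Tel, and gpm6ba 0.035 in the hypothalamus. That scale moved the median of all genes to 0.20 and 0.18 in these 2 comparisons. In the Tel, gpm6ab also became 0.020 with DESeq2, 0.025 with its size factors and 0.13 on thinned counts. Without the low-count filter gpm6aa became -0.063 in the OB of females, and the male region interaction of gpm6bb -0.028. Without low-total libraries gpm6bb in mutant against WT males became 0.0074 in the hypothalamus and 0.078 in the Tel, and its male region interaction -0.078. Nothing was called in these cases, and the cause was not tested.

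Pool codes were shared between groups, but only 16 of 42 same-code pairs other than C1 had a correlation over 0.1 (lowest -0.213), so the codes were not taken to pair the samples. For C1 all 12 pairs did (0.119 to 0.411). With the code as a replicate block, 0 members were called between genotypes or sexes, gpm6aa in the OB of females became -0.024 and gpm6ab in the Tel of females 0.013. Without the pool block the male region interaction of gpm6bb became -0.094.

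Dropping pools singly gave these ranges for mutant over WT. In females they were -0.38 to 0.46 for gpm6aa in the OB, -0.16 to 0.0235 and -0.10 to 0.11 for gpm6ab in the hypothalamus and the Tel, and -0.45 to 0.11 for gpm6ba in the hypothalamus. In males they were -0.24 to 0.086 and -0.34 to 0.27 for gpm6aa in the hypothalamus and the OB, and -0.54 to 0.13, -0.41 to 0.0093 and -0.49 to 0.21 for gpm6bb in the hypothalamus, the OB and the Tel. The male region interaction of gpm6bb ran from -0.21 to 0.42. In females, gpm6bb ran from -2.48 to -2.27 in the Tel, from -2.59 to -2.28 in the hypothalamus and from -0.55 to 0.041 in the OB. These female values chose the gene, so their ranges are a description.

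By Spearman's rho over the 12 groups, 0 of the 3 genes named as most like gpm6aa, gpm6ab and gpm6ba also led, and 2 of 3 for gpm6bb. Counts of calls over all genes moved without the low-total libraries and without the low-count filter. For mutant over WT females there were 109 calls in the Tel, against 5 and 229, and 117 in the OB, against 44 and 199. For mutant over WT males there were 125 in the hypothalamus, against 37 without low-total libraries, and 1 each in the OB and the Tel, against 41 and 37 without the filter. For mutant males over mutant females there were 53 in the Tel, against 2 and 150, and 102 in the OB, against 29 and, with DESeq2, 185. For the sex interaction there were 22 in the Tel, against 0 and 136, and 9 in the OB, against 2 and 108. Single pools moved these counts as well: with 1 pool dropped, calls ran from 4 to 160 for mutant males over mutant females in the OB and from 0 to 128 in the Tel, from 21 to 150 for mutant over WT males in the hypothalamus, from 48 to 112 and 56 to 111 for mutant over WT females in the OB and the Tel, and from 0 to 88 and 0 to 111 for the sex interaction there. In WT fish of both sexes, 3317 to 3512 calls between the OB and another region became 1401 to 1574 on thinned counts, and up to 5641 without the filter, and 759 and 808 between the hypothalamus and the Tel became 306 and 299 when thinned.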
